A study of Mus musculus with 6 samples.

Results

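The 8 genes described here are transcription factors and a growth factor of the step from naive to formative epiblast: Zic1, Zic2 and Zic5, Otx2, Foxd3, Pou3f1, Sall2 and Fgf5. They were taken by gene name from a table of 49993 genes, and all 8 were found in it. They were chosen with the in vivo and in vitro values of these same libraries already known, so the differences between groups are given for them as a description. Calls that fits to the whole table made among them are listed below, and nothing is read from those calls. RNA-seq was done on mouse embryos at the blastocyst stage, with 3 libraries from embryos that had developed in the mother (in vivo group) and 3 from embryos cultured from the zygote (in vitro group). In the females of both groups ovulation was induced with pregnant mare serum gonadotrophin (10 IU) followed after 48 h by human chorionic gonadotrophin (hCG, 10 IU), and they were then mated. Embryos of the in vivo group were flushed out of the uterus as blastocysts on day 3.5. In vitro embryos were taken as zygotes from the oviduct 19 to 21 h after hCG, stripped of cumulus cells with hyaluronidase, and grown to blastocysts in KSOM, a potassium-enriched embryo medium, at 37 °C under 5% CO2. Blastocysts of both groups were picked by stage and morphology before freezing, and neither the strain nor the age of the cultured blastocysts is given in the sources used here.

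The epiblast is the embryonic lineage of the blastocyst that gives rise to the fetus. Around implantation it leaves the naive state, kept by factors such as NANOG, KLF and TFCP2L1 proteins, and passes through a formative state in which OTX2 and other factors occupy a new set of enhancers and genes such as Fgf5, Dnmt3b and Pou3f1 are switched on. The ZIC proteins are zinc-finger transcription factors best known from the neural tube and from left-right patterning. ZIC2 is also made in pluripotent cells, where it binds enhancers together with chromatin remodellers.

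Libraries held 6918288 to 17643429 counts, and a count of 0 allows a level of up to 0.216 to 0.527 CPM (3 counts; CPM are counts scaled to an equal library total). Intervals and such floors cover counting error only. The source label names the inner cell mass, the tissue label the blastocyst and the cell type label embryonic stem cells. Trophectoderm markers, the genes of the outer layer, summed to 1103 to 2262 CPM in vivo and 2112 to 3289 CPM in vitro, so RNA of that layer's genes was present in all 6 libraries, with Cdx2 at a mean of 11.1 ± 9.06 in vivo against 22.6 ± 10.7 CPM in vitro (SD, n = 3). No label says that embryos came from separate mothers, so p-values measure only the spread between these samples. In bulk RNA, more cells of one type and more RNA per cell cannot be told apart. Libraries of 1 group differed among themselves: in vivo replicates 1 and 2 had a Spearman correlation of 0.942 across genes, whereas replicate 3 had 0.786 and 0.793 with these. The 18S ribosomal RNA gene took 16.7% and 22.2% of the counts of in vivo replicates 1 and 2 and between 35.8% and 41.7% of the other 4 libraries. In vitro replicate 2 held 1 count over 4 Y-linked genes and 7494 counts of Xist, while the other 5 libraries held 1139 to 1693 and 8 to 341.

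The stretch of 250 bases upstream of the annotated start is shown for 4 genes that differ in how they were detected: Zic5 and Foxd3, which varied between libraries, Otx2, which was present at similar mean levels in both groups, and Fgf5, which had no count. Sequences are those of RefSeq on GRCm38.p6, written 5′ to 3′ on the strand of the gene, with each CG dinucleotide in capitals. RefSeq windows were found for 6 of the 8 genes, 10 windows in all because Otx2 and Sall2 have several starts. The windows are chr14:122465659-122465908 for Zic5 (minus strand), chr4:99656049-99656298 for Foxd3 (plus strand), chr14:48665110-48665359 for the third of 4 starts of Otx2 (minus strand) and chr5:98253934-98254183 for Fgf5 (plus strand).
Zic5: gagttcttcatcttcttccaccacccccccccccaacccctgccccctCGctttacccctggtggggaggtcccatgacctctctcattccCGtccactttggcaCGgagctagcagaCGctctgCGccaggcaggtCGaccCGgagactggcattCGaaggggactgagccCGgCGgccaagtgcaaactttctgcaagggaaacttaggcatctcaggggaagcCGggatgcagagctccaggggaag
Foxd3: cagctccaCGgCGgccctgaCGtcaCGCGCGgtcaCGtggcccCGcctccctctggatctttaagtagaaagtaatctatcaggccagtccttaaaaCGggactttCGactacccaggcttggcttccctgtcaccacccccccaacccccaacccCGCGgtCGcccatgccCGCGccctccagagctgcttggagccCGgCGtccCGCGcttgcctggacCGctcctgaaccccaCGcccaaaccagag
Otx2: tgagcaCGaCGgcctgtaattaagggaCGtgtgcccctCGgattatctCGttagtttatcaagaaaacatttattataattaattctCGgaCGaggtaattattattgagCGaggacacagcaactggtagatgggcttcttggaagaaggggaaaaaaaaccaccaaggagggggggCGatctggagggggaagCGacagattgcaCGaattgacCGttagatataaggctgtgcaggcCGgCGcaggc
Fgf5: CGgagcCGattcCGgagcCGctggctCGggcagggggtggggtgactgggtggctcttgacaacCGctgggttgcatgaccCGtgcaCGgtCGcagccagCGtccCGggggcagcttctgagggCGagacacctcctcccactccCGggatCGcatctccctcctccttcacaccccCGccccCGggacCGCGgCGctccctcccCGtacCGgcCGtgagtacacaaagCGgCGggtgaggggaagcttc
The Fgf5 window held 24 CG dinucleotides, that of Foxd3 21, that of Zic5 11 and that of Otx2 14, against a median of 6 over 32851 windows of the same length. The Zic1 window held 27, the other Otx2 windows 6, 8 and 9, and the Sall2 windows 0 and 6. CG-rich windows were thus found both upstream of Foxd3, which was counted in all 6 libraries, and upstream of Fgf5, which was counted in none. Short motifs were searched on both strands. The letters GGATTA, bound by OTX proteins, occurred in 1 of the 10 windows, the Otx2 window printed above, and in 6.25% of all windows. The octamer motif ATGCAAAT, bound by POU factors, occurred in 0 of the 10 windows and 1.60% of all windows. CCTGCTG, the core of a ZIC motif, occurred in 0 of the 10 windows and 8.44% of all windows. TATAAA occurred in 2 of the 10 windows, the first of Otx2 and the first of Sall2, and in 12.4% of all windows. These matches are counts of letters in the windows and say nothing of binding.

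Of the 8 genes, 4 passed the filter on low counts and entered the fit: Zic2, Zic5, Otx2 and Foxd3. The other 4 were too low: Pou3f1, Sall2, Zic1 and Fgf5. Zic2 was the gene whose groups did not overlap, with all in vitro libraries above all in vivo libraries, a pattern that 9.27% of the 14301 genes tested had in this direction. Taken as in vitro minus in vivo, the fold change on the log2 scale was above 0 for 3 of the 4 genes and below 0 for Otx2, beside 7115 positive and 7186 negative over all genes tested, whose median was -0.0058. With Benjamini-Hochberg adjustment, the quasi-likelihood test of edgeR called 0 of the 4 genes, as it called 0.0% of all genes tested. At an unadjusted p under 0.05 it had 1 of the 4, Zic2, beside 10.2% of all genes. DESeq2 called Zic2 alone of the 5 genes to which it gave an adjusted p, beside 2.82% of 16293 genes. limma-voom with quality weights called 0 of 4, beside 0.713% of the genes tested. edgeR without the filter on low counts called Zic2 alone, beside 1.4% of 27882 genes. The newer form of edgeR's test called 0 of 4, beside 0.021% of the genes tested. Since the choice of the genes used this contrast, nothing is read from these counts.

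**Figure D1:**
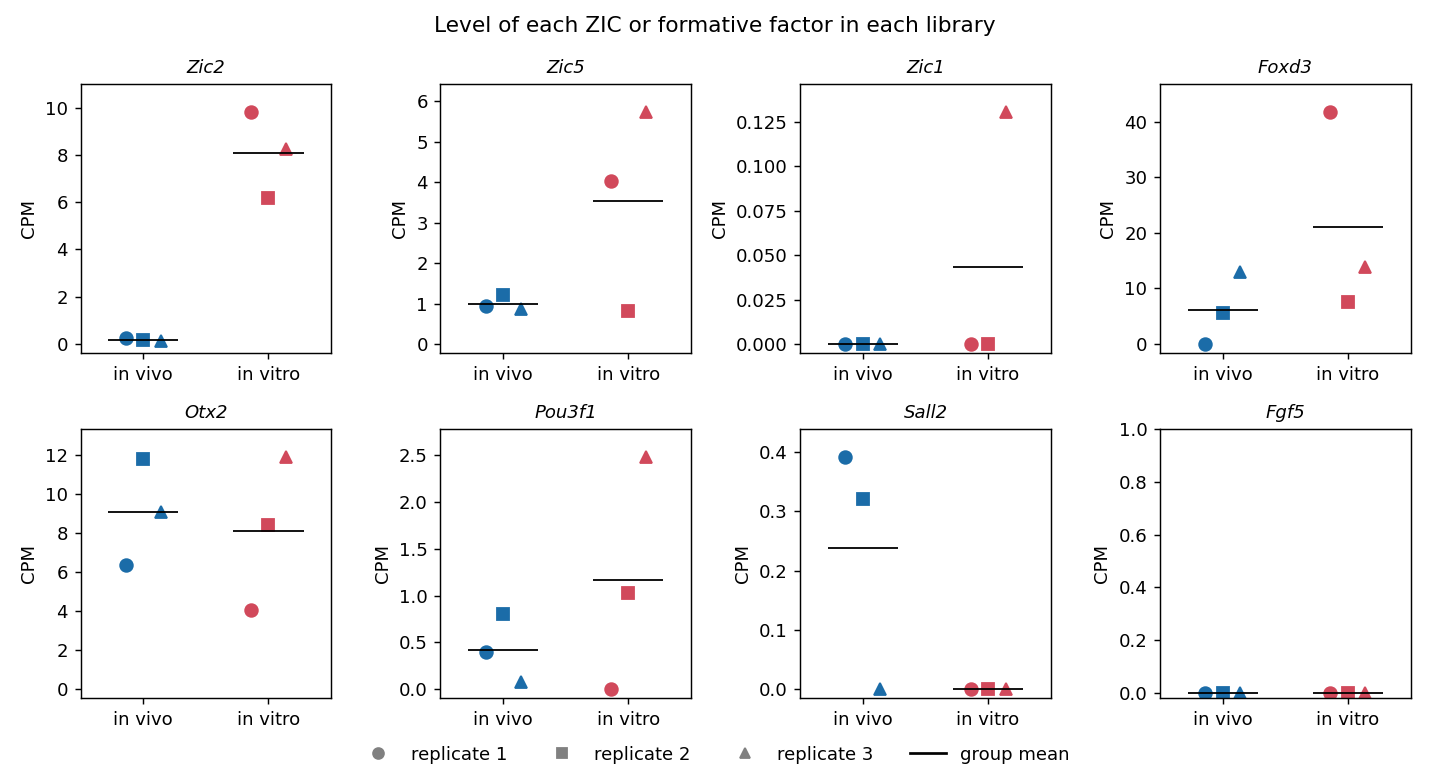
Level in CPM (vertical axis, linear, own scale in each panel) of the 8 genes in each library, in vivo at left and in vitro at right. Symbols are replicates and lines are group means; Zic2 in vitro libraries lie between 6.17 and 9.84 CPM and in vivo libraries between 0.144 and 0.235 CPM, while the groups of Zic5, Otx2, Foxd3 and Pou3f1 overlap.

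Zic2, the ZIC factor with known roles in pluripotent cells and the forebrain, lies at chr14:122475384-122480328 on the plus strand of GRCm38. It had 3, 2 and 2 counts in in vivo replicates 1, 2 and 3, and 56, 84 and 63 counts in in vitro replicates 1, 2 and 3. On the scale of CPM these were 0.235, 0.160 and 0.144 in vivo and 9.84, 6.17 and 8.24 in vitro. Every in vivo library was at or under 3 counts and every in vitro library was far above. The mean was 0.180 ± 0.0488 in vivo against 8.08 ± 1.84 CPM in vitro (SD, n = 3 each), a log2 fold change of 5.40 ± 1.09 (SE). Because the in vivo sum was 7 counts against 203 in vitro, the ratio of summed levels was 42.1 with a 95% exact binomial counting interval of 20.1 to 106. Its value stayed between 5.01 and 5.74 over 25 other fits, those without 1 library included.

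Zic5 lies beside Zic2 on the opposite strand, at chr14:122459160-122465658, and the starts of the 2 genes are 9726 bases apart. Its protein belongs to the same zinc-finger family, with known roles in neural crest and forebrain. It had 12, 15 and 12 counts in vivo, beside 23, 11 and 44 counts in vitro, or 0.941, 1.20 and 0.863 CPM and 4.04, 0.808 and 5.75 CPM. In vitro replicates 1 and 3 were above all in vivo libraries, and in vitro replicate 2, which was the lowest of the in vitro libraries in Zic2 as well, was below all of them. The mean was 1.00 ± 0.178 in vivo against 3.53 ± 2.51 CPM in vitro, with a log2 fold change of 1.80 ± 1.22. It was 0.81 under limma-voom with quality weights.

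The lncRNA 2610035F20Rik, between Zic5 and Zic2, had 4 counts in all, each of them in in vitro replicate 2. Pcca, which starts 4037 bases past the end of Zic2 on the same strand and codes for an enzyme of propionate breakdown, had 44, 37 and 80 counts in vivo and 30, 44 and 27 in vitro. Zic1, a ZIC factor of the dorsal neural tube and cerebellum at chr9:91358058-91365768, had 1 count over the 6 libraries, in in vitro replicate 3. Zic4, which overlaps Zic1 on the other strand, had 2 counts, in in vivo replicate 3. The strand setting of the counting is not known here, so reads in the stretch that the pair shares may not be told apart. No difference between the groups was detectable for Zic1 and Zic4 at this depth.

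Foxd3, a forkhead factor needed to maintain the epiblast and later the neural crest, lies at chr4:99656299-99658671 and was the gene with the highest mean level of the 8. It had 1, 69 and 179 counts in vivo, beside 238, 104 and 106 counts in vitro. In CPM the in vivo libraries were at 0.0784, 5.53 and 12.9 and the in vitro libraries at 41.8, 7.64 and 13.9. In vivo replicate 1 was far below the other 5 libraries and in vitro replicate 1 above them, and in vivo replicate 3 was above in vitro replicate 2, so the groups overlapped. The mean was 6.16 ± 6.42 in vivo against 21.1 ± 18.2 CPM in vitro, with a log2 fold change of 1.77 ± 1.22. Leaving out in vivo replicate 1 gave 1.18, leaving out in vivo replicate 3 gave 2.91, leaving out in vitro replicate 1 gave 0.80, and limma-voom with quality weights gave 3.70. The length that the table gives for Foxd3, 4746 bases, sums 2 copies in the assembly, the one on chromosome 4 and another on a fix patch, so 2373 bases were used below; what the second copy did to the counting was not tested.

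Otx2, the homeobox factor that helps to move cells out of the naive state, lies at chr14:48656781-48667644 on the minus strand. It had 81, 147 and 126 counts in vivo, beside 23, 114 and 91 counts in vitro. The levels were 6.35, 11.8 and 9.06 in vivo and 4.04, 8.38 and 11.9 CPM in vitro. In vitro replicate 1 was the lowest and in vitro replicate 3 the highest of the 6, so the in vitro libraries spanned the in vivo ones. The mean was 9.06 ± 2.72 in vivo against 8.10 ± 3.93 CPM in vitro, and the log2 fold change of -0.16 ± 0.69 was smaller than its standard error. The sign turned when 1 library was left out: it was 0.07 if in vivo replicate 2 was omitted and 0.17 if in vitro replicate 1 was.

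Pou3f1, also called Oct6, a POU factor of the postimplantation epiblast at chr4:124657646-124660655, had 5, 10 and 1 counts in vivo, beside 0, 14 and 19 counts in vitro. The levels were 0.392, 0.802 and 0.0719 in vivo and 0, 1.03 and 2.48 CPM in vitro. In vitro replicate 1, the highest library for Foxd3 and Zic2, had no Pou3f1 count, and the groups overlapped. Sall2, a spalt-family zinc-finger factor at chr14:52311177-52328670, had 5, 4 and 0 counts in vivo and 0 counts in all 3 in vitro libraries. Its highest level was 0.392 CPM, within what a count of 0 allows in in vitro replicate 1. Fgf5, the secreted growth factor that is the usual marker of the formative and primed epiblast, at chr5:98254184-98277033, had 0 counts in all 6 libraries. That allows up to 0.216 CPM in the deepest scaled library and up to 0.527 CPM in the shallowest.

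Levels of different genes were compared as CPM per kb of gene length. Averaged over the 6 libraries, Foxd3 stood highest at 5.74 CPM per kb, followed by Otx2 at 1.51, Zic2 at 1.39, Zic5 at 0.923, Pou3f1 at 0.265, Sall2 at 0.0223 and Zic1 at 0.00389, with Fgf5 at 0. The order within a library differed from this. Otx2 led in in vivo replicate 1, where Foxd3 was at 0.033 CPM per kb, and Foxd3 led in the other 5 libraries. Zic2 was second in every in vitro library, and in the in vivo libraries it was below Zic5 and Otx2. Neighbours in the averaged order did not separate: Foxd3 and Otx2, Otx2 and Zic2, Zic2 and Zic5, and Zic5 and Pou3f1 each changed places between libraries.

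**Figure D2:**
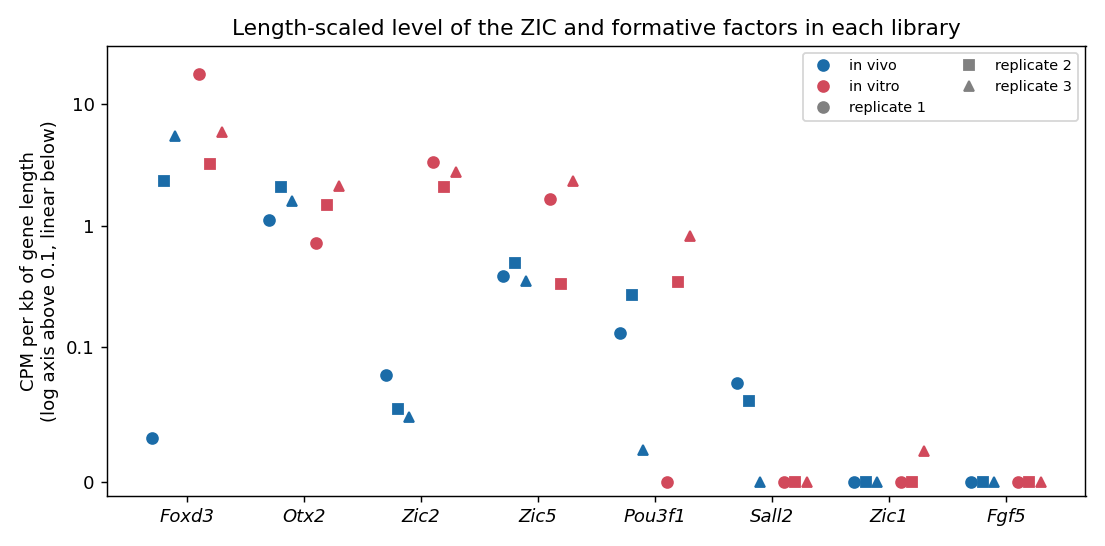
CPM per kb of gene length (vertical axis, logarithmic above 0.1 and linear below) of the 8 genes in each library, in order of their mean over the 6 libraries, with in vivo in blue, in vitro in red and a symbol per replicate. Foxd3 spans from 0.033 to 17.6 CPM per kb, and Fgf5 lies at 0 in all libraries.

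**Figure D3:**
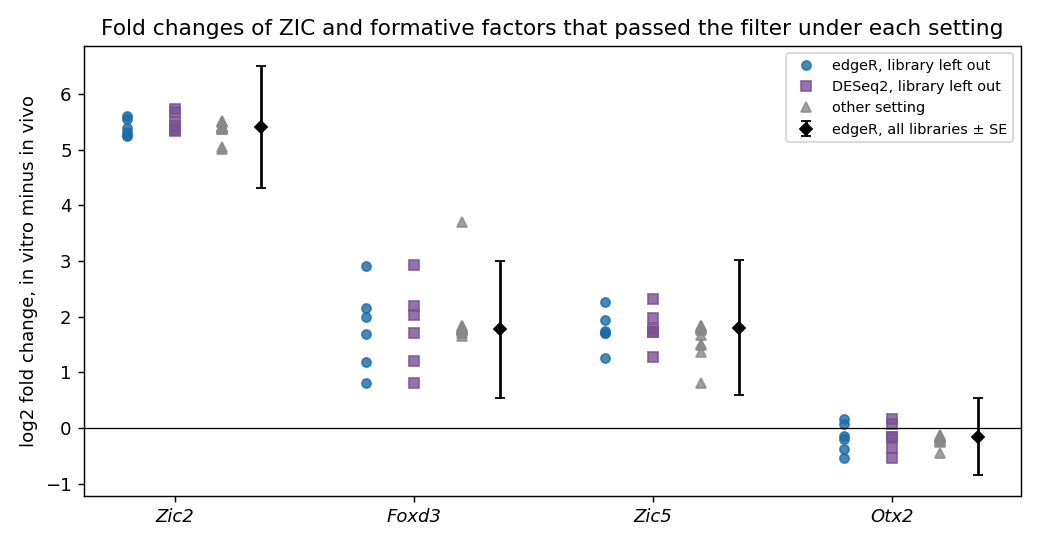
Vertical axis, fold change as log2, in vitro minus in vivo, of the 4 genes that passed the filter, with 1 library left out (circles for edgeR, squares for DESeq2), under the other settings (triangles) and in edgeR's fit to all libraries (diamonds with SE). Zic2 stays between 5.01 and 5.74, Foxd3 spans 0.80 to 3.70, and Otx2 falls on both sides of 0.

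The 4 genes did not share one pattern over the libraries. Pearson correlations of their log2 CPM over the 6 libraries, given as a description, were 0.68 for Zic2 with Zic5, 0.56 for Zic2 with Foxd3 and 0.52 for Zic5 with Foxd3, and -0.29, -0.12 and -0.05 for Otx2 with Zic2, Zic5 and Foxd3. All of these points share the libraries and their scaling, and group means were not removed. A correlation with Zic2, whose groups did not overlap, thus also reflects the difference between groups known when the genes were chosen. Among 6487 genes (6486 for Foxd3) with an assigned symbol and a mean of at least 10 CPM, those most like Zic2 were Mcl1 (r = 0.994), Sgms1 (0.993) and Khdrbs1 (0.991). For Zic5 they were Uba3 (0.989), Tomm20 (0.984) and Ankrd13c (0.983), for Otx2 Spast (0.990), Pi4k2b (0.976) and Zfp317 (0.975), and for Foxd3 Fubp1 (0.978), Map3k3 (0.976) and Axin2 (0.975). With 6 libraries many genes reach such values by ranks as well: 50 genes had a Spearman correlation of 1 with Zic2, and only 2 of these 12 genes were among the 3 most alike by that measure. Mcl1, Sgms1 and Khdrbs1 had Spearman correlations of 0.771, 0.886 and 0.829 with Zic2. Picked for their likeness to Zic2, these genes separated the groups by that choice, and their changes were smaller. Mean CPM of the cultured group was 166 for Mcl1, 38.9 for Sgms1 and 86.0 for Khdrbs1, where the uterine blastocysts had 89.4, 16.0 and 60.2. For Zic2 the means were 8.08 and 0.180.

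Among the relatives of the ZIC genes, Glis2, a zinc-finger gene of a neighbouring family, was at 2.30 ± 1.82 in vivo against 8.71 ± 7.56 CPM in vitro (edgeR adjusted p = 0.592), and Gli3 had no count.

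Relatives of the other genes gave 0 calls by edgeR among 5 tested of 17, with 0 at an unadjusted p under 0.05 and 0 by DESeq2 and limma-voom. The spalt factor Sall4 was at 247 ± 18.3 in vivo against 271 ± 118 CPM in vitro (log2 fold change 0.13 ± 0.36), and Sall1 at 26.1 ± 14.3 and 35.6 ± 13.2 CPM (0.45 ± 0.50). Fgf4, the growth factor secreted by the epiblast of the blastocyst, was at 48.7 ± 25.3 in vivo against 39.6 ± 5.96 CPM in vitro. Pou2f1 was at 17.4 ± 8.20 and 18.8 ± 12.5 CPM. Otx1 had 11, 0 and 2 counts in vivo and 15, 0 and 0 in vitro, and Sall3 had 0, 0 and 50 in vivo and 46, 0 and 6 in vitro. Pou3f2, Pou3f4, Foxd1, Foxd2, Foxd4, Fgf8 and Fgf15 had no count.

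A list of 32 other formative and primed epiblast genes was compared with the 8. Like the other lists here, it was chosen with earlier results of these data known. Over all the lists, edgeR had 27 of 116 tested genes (23.3%) at an unadjusted p under 0.05, beside 10.2% of all genes tested. DESeq2 called 12 genes of the lists, beside 2.82% of 16293 genes. Some genes stand on more than 1 list and were counted once here. Because of how the lists were chosen, nothing is read from these shares. Among the 32 formative and primed genes, edgeR called 0 of the 17 tested, with 12 positive and 5 negative log2 fold changes and a median of 0.51. At an unadjusted p under 0.05 edgeR had 4, all higher in vitro: Dnmt3b, Etv4, Tcf15 and Zfp281. DESeq2 called 4 higher and 0 lower (Dnmt3b, Sox4, Etv4 and Nodal), and limma-voom called Dnmt3b. Dnmt3b, a DNA methyltransferase that acts as methylation is laid down after implantation, was at 44.4 ± 10.8 in vivo against 264 ± 144 CPM in vitro (log2 fold change 2.57 ± 0.47). Its adjusted p was 0.306 by edgeR, 0.0396 by limma-voom and 0.000256 by DESeq2, which called it without each library in turn (at most 0.0138). Etv4, an ETS factor downstream of FGF signalling, was at 0.175 ± 0.105 in vivo against 11.5 ± 12.6 CPM in vitro, and DESeq2's adjusted p of 0.000102 went to 0.0574 without in vitro replicate 1. Tcf15, a basic helix-loop-helix factor of cells about to leave the naive state, was at 9.52 ± 7.21 and 27.5 ± 8.10 CPM (edgeR adjusted p = 0.489), and Zfp281, a zinc-finger factor of the same step, at 37.1 ± 2.75 and 72.2 ± 18.1 CPM (0.415).

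Nodal, the TGF-beta family ligand of the epiblast, and its inhibitor Lefty2 are named here after their values were seen, as is the SOX factor Sox4. None of them passed the filter on low counts, so edgeR's main fit did not test them. Of the edgeR settings that gave an adjusted p, 1 of 5 called Nodal (0.00134 to 0.869) and 0 of 6 called Sox4 (0.188 to 0.869). Nodal had 0 counts in every in vivo library and 81, 10 and 56 in vitro, and DESeq2 gave an adjusted p of 0.000104, which was at most 0.0232 without any 1 library. Lefty2 had 0 counts in every in vivo library and 245, 6 and 1 in vitro, so nearly all its counts came from in vitro replicate 1, which was also the highest for Foxd3 and Nodal. Sox4 had 3, 0 and 0 counts in vivo and 41, 64 and 8 in vitro, and DESeq2's adjusted p of 0.0154 went up to 0.225 without 1 library, its call being lost if in vivo replicate 2 or either of in vitro replicates 1 and 2 was omitted. Lef1, Sox3, T and Sox1, other genes of the primed epiblast and its early derivatives, had no count, as Fgf5 had none.

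Naive pluripotency genes were present in both groups. Of 22 such genes 21 were tested, 12 with a fold change above 1 and 9 below, and a log2 median of 0.05. edgeR, DESeq2 and limma-voom called 0 of them. At an unadjusted p under 0.05 edgeR had 7 of the 21, 6 higher and 1 lower in vitro, beside 10.2% of all genes tested. Nanog was at 133 ± 36.1 in vivo against 111 ± 31.1 CPM in vitro, and Sox2 at 35.2 ± 14.9 and 89.9 ± 58.4 CPM (edgeR adjusted p = 0.437). Dppa3, a maternal and naive-state factor, was at 655 ± 222 and 322 ± 147 CPM (0.440). The summed level of the list ranged from 3299 to 4035 CPM in vivo and from 2546 to 3957 CPM in vitro, beside 8.39 to 23.0 CPM in vivo and 24.0 to 59.7 CPM in vitro for the 8 genes described here. Zic2, chosen with this contrast known, gave 6.17 of the 24.0 CPM, in in vitro replicate 2. Without Zic2 that library would lie below in vivo replicate 3, the library at 23.0 CPM, and the ranges of the groups would overlap. Foxd3 gave 41.8 of the 59.7 CPM, in in vitro replicate 1. Of 16 factors known to act with OTX2, ZIC2 and FOXD3, such as subunits of the NuRD and BAF chromatin remodellers, all were tested and edgeR, DESeq2 and limma-voom called 0. edgeR had 3 at an unadjusted p under 0.05, all higher in vitro, and the median was 0.38. The 3 were Arid1a, Smarcd1 and Zfp281, the last already counted on the list of other formative genes.

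Genes of the other cells that these samples could hold were set beside these values. Of 20 primitive endoderm markers 19 were tested, 18 above 0 and 1 below on the log2 scale with a median of 0.96, and their summed level ranged from 782 to 1660 CPM in vivo and from 1228 to 2833 CPM in vitro. edgeR called 0 and had 6 of the 19 at an unadjusted p under 0.05, beside 10.2% of all genes tested. DESeq2 called 5, all higher in vitro, beside 2.82% of 16293 genes. Among them were Sox7 (0.0240 ± 0.0415 and 18.4 ± 13.6 CPM) and Lama1 (14.7 ± 9.79 and 131 ± 86.1 CPM), which limma-voom called as well. Of 22 trophectoderm markers 21 were tested, 17 positive and 4 negative with a median of 0.53. edgeR called 0 and had 6 of the 21 at an unadjusted p under 0.05. DESeq2 called 2 higher (Id2 and Fgfr2, the latter also on the endoderm list) and 1 lower (Cldn6), and limma-voom called Id2. Markers of both layers were thus among the calls of DESeq2 and of limma-voom, and their part in the values of the ZIC and formative factors was not tested. Early neural genes, where ZIC factors are best known, summed to 5.80 to 19.3 CPM in vivo and 6.47 to 22.7 CPM in vitro. Sox1, Hes5, Neurog2, Dcx, Rax and Fabp7 were among those at 0, but others were counted. Hesx1 gave 15.1 of the 19.3 CPM, in in vivo replicate 2, and Nes gave 12.3 of 20.4 CPM in in vitro replicate 3. Blood markers summed to at most 5.39 CPM, with Hbb-bs, Hbb-bt, Ptprc, Lyz2, S100a8 and S100a9 among those at 0. Hba-a2 gave 4.46 of the 5.39 CPM, in in vivo replicate 3, and Alas2 gave all 3.66 CPM of in vitro replicate 3. Cumulus and granulosa markers summed to 9.49 to 15.8 CPM in vivo and 2.11 to 9.80 CPM in vitro, uterine and oviduct markers to 11.1 to 35.4 and 9.93 to 48.4 CPM, and oocyte transcripts to 40.4 to 123 and 22.6 to 36.4 CPM. The 123 CPM of in vivo replicate 3 came mostly from Mos, a kinase of the oocyte named after its values were seen, with 1325 counts there and 13, 5, 0, 0 and 0 in the other libraries. Without Mos the oocyte sum was 28.2 CPM in that library, and the groups, at 28.2 to 41.0 and 22.6 to 36.4 CPM, overlapped. Over these last 5 lists edgeR, DESeq2 and limma-voom called 0, and edgeR had 1 cumulus marker (Amhr2) and 1 uterine marker (Muc1) at an unadjusted p under 0.05, both lower in vitro. Of 10 housekeeping genes, all tested, edgeR, DESeq2 and limma-voom called 0, with 0 at an unadjusted edgeR p under 0.05 and a median of -0.18.

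**Figure D4:**
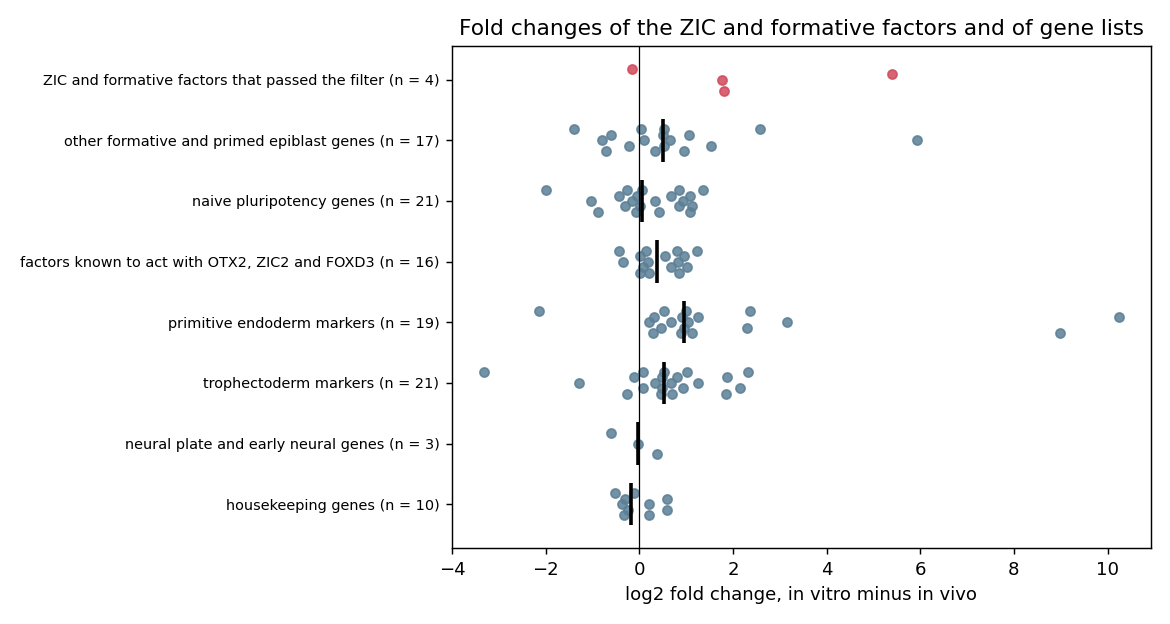
Horizontal axis, fold change as log2, in vitro minus in vivo, of each tested gene, with the ZIC and formative factors that passed the filter in red and gene lists in grey-blue; bars are list medians, and the value at the far right, Foxa2, has no in vivo count, so its fold depends on the prior count and is no bound. The other formative genes have a median of 0.51, the naive genes 0.05 and the primitive endoderm markers 0.96.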

How the data were processed

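The deposited values are whole-number counts for 49993 genes, not normalized by the authors, in a single table with a column for each of the 6 libraries. Per the submitters' processing notes, FastQC 0.11.2, DESeq2 and the build GRCm39 were used; in the table itself, 49626 of 49628 genes compared have the RefSeq coordinates of GRCm38.p6, so GRCm38 is used here. The aligner, the counter and any strand option were not given in the sources used here. RNA was extracted and turned into libraries with a microscale kit and a transposase-based kit, per the labels' protocols.

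Libraries were grouped by their titles. The genes and lists (13 lists, 213 different symbols) were chosen with earlier results of these data known. Counts were fitted over the whole table with edgeR 4.0.16 (R 4.3.3): filter on low counts by group (14301 genes kept), library totals taken after the filter, TMM scaling, two-sided quasi-likelihood F-test (robust, legacy form) with Benjamini-Hochberg adjustment and a threshold of 0.05. The F statistic gave the standard errors. CPM values use the scaled totals, and a prior count of 2 was added for log2 CPM. Fits with DESeq2 1.42.0 and limma 3.58.1 were run as well. The edgeR, DESeq2 and limma fits were first tested on simulated counts, with changes set only in genes of a mean of at least 10 CPM. Zic2, Zic5 and Otx2 had lower means, at 4.13, 2.27 and 8.58 CPM over the 6 libraries. The outcome is not given here, and nothing is read from it. The following choices were made after a first run had been seen: library totals after rather than before the filter, and DESeq2's default filtering rather than that for a threshold of 0.05; the fits of that first run are among the alternatives.

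Named were the 8 genes, Zic4, Otx1, Sall1, Sall3 and Sall4 whatever their values, from each list among up to 4 tested genes of smallest p, and the 3 genes most like each of the 8 that passed the filter. Other names were chosen after their values were seen: Nodal, Lefty2, Sox4, Nanog, Cdx2, the neighbours of the ZIC genes, the genes listed at 0 and those given as a large part of a list's sum. Promoter windows come from RefSeq. Some genes of the lists are not reported here.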

Additional observations from a re-analysis of the deposited data

How the results depend on the processing

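Genes called between the groups numbered 0 in edgeR's fit (1458 at an unadjusted p under 0.05), and also 0 with DESeq2's size factors, library totals alone, the stricter filter, no robust moderation, ribosomal RNA genes left out, library totals taken before the filter, and each library left out in turn. The count was 391 without the filter on low counts, 3 in edgeR's newer form, 102 with limma-voom and 459 with DESeq2. DESeq2 gave 473 when its filtering was set for a threshold of 0.05, 294, 152 and 907 without in vivo replicates 1, 2 and 3, and 255, 855 and 382 without in vitro replicates 1, 2 and 3. Over the genes of the lists the counts were 0 in edgeR's fit, 15 without the filter, 1 in the newer form, 5 with limma-voom, 12 with DESeq2 under either filtering, and, with DESeq2 in the same order of libraries left out, 10, 9, 14, 8, 15 and 10. Same-numbered libraries of the 2 groups did not deviate together: the correlations of their deviations were -0.0986, 0.0960 and -0.0443, and not every library correlated best with its own number. With the replicate number as a block, edgeR called 0 genes and 0 of the lists, and DESeq2 556 and 15. The extra DESeq2 fits and the totals before the filter were added after the data were seen. Of the 4 genes fitted, 3 had a positive fold change in edgeR's fit, 2 of 3 under the stricter filter, which left out Zic5, and 4 without in vivo replicate 2 or in vitro replicate 1, where Otx2 turned. Scaling by library totals alone moved the median of all genes from -0.0058 to -0.31, and the medians of the other formative genes to 0.09 and of the naive genes to -0.31; over the other alternatives the median of all genes lay between -0.14 and 0.16. Counts of 7 or fewer in a group, as for Zic2 in vivo, Sall2 in vitro and Zic1, set the limit on how well any ratio is known. Why the tools differ was not tested.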
